A study of Homo sapiens with 2 samples.

Results

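The clustered histone genes are the genes whose symbols start with HIST1H, HIST2H, HIST3H or HIST4H, named for the gene clusters in which they lie. They were chosen by symbol alone: 68 of the 36027 genes in the table carried such a symbol, and 67 of them had at least 1 count. The cells were SK-N-BE(2)-C, an established human neuroblastoma line, as the derivative SK-N-BE(2)-C-pIND-HRASV12, in which doxycycline switches on HRASV12, a mutant of the GTPase HRAS. The HRASV12 induced library came from cells of this derivative that had 100 ng/ml doxycycline over 13 days. The uninduced control library came from cells of the same derivative kept for 13 days without doxycycline. The same derivative was used in both, so no library lacked the inducible gene and doxycycline was not given to cells that lacked it. Each group was 1 droplet library of single cells read at the 3′ end of RNA (10x Genomics chemistry), with no replicate, so no test was possible and every difference describes these libraries.

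Histones are the proteins around which DNA is wound: H2A, H2B, H3 and H4 form the nucleosome core, and H1 binds the DNA that links cores. Most clustered histone genes are transcribed in S phase, when new DNA needs histones, and their mRNAs usually end in a stem-loop bound by SLBP in place of a poly(A) tail. Some of them can also be made as longer, polyadenylated mRNAs, which have been described in cells that have left the cycle or are differentiating. The labels name polyA RNA as the molecule, so the counts are of histone RNA that this chemistry captured. Histone mRNA without a poly(A) tail may be missed, and how much of it there was cannot be read from these counts.

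The induced library held 666 cells and 80359736 counts, and the control library 956 cells and 95350640 counts, with no barcode shared. HRAS stood at 161 CPM (counts scaled by library size) in induced and 109 CPM in control cells; 3′ counts do not tell the transgene from the native gene. Of 11 markers of adrenergic neuroblastoma, 9 reached 10 CPM in a library, among them HAND2, PHOX2A and MYCN. No measured gene was found among the immune and erythroid markers. Of 5 fibroblast markers, LUM and PDGFRB were measured, and the list summed to 83.8 CPM with induction against 39.8 CPM in control. Of 4 epithelial markers KRT18 and KRT19 were measured (sum 39.8 CPM with induction, 22.8 CPM in control), of 6 endothelial markers EGFL7 and ESAM (72.9 CPM with induction, 104 CPM in control), and of 4 Schwann cell precursor markers PMP22 (47.4 CPM with induction, 36.2 CPM in control). The part of these markers in the results was not tested. Some induced cells were low in mitochondrial counts and in MALAT1, a nuclear RNA. The 5th percentile over cells was 1.44% mitochondrial counts with induction against 8.52% in control, and for MALAT1 33.6 CPM with induction against 238 CPM in control. The part of cells low in these measures in the results below was not tested, but the main values are also given for cells at or above the control 5th percentiles of both measures (the quality limits), which are 406 induced and 871 control cells. Group, culture, library and capture cannot be told apart.

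Summed over all members, clustered histone RNA was lower in the induced library, at 961 CPM against 1828 CPM in the control library. The ratio of induced over control was 0.526 (95% exact interval 0.522 to 0.531, counting error only, from 77262 and 174269 counts). Among the cells above both quality limits the log2 ratio was -0.75, against -0.93 in all cells. A library sum does not tell fewer cells in S phase from less histone RNA in each cell; the values per cell below bear on this. HIST1H4C alone supplied 60.9% of all member counts in the induced library, against 76.3% in control, so the sum is largely the level of that gene. Without it the other members summed to 376 CPM in the induced library, against 434 CPM in control, a ratio of 0.866 (0.853 to 0.879).

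The classes did not share 1 pattern. The 13 H4 genes summed to 647 CPM in the induced library, against 1431 CPM in control, a ratio of 0.452, but the 12 of them other than HIST1H4C summed to 61.8 CPM in induced against 37.7 CPM in control cells, a ratio of 1.64. HIST1H4H and HIST1H4I carry that sum: the 10 others had 11.4 CPM in induced against 16.5 CPM in control cells (ratio 0.690), and the median log2 ratio of the 7 genes at 1 CPM among the 12 was -0.25. The 5 H1 genes summed to 89.3 CPM in the induced library, against 177 CPM in control, a ratio of 0.504. The 17 H2A genes together were slightly higher, at 144 CPM in induced against 122 CPM in control cells (ratio 1.18), and HIST1H2AC alone carries this: the 16 others had 75.4 CPM in induced against 91.4 CPM in control cells (ratio 0.825), with 7 of 12 at 1 CPM at least 1.5-fold lower and 0 higher. These remainders were chosen after the values were seen. The 21 H2B genes, at 60.3 CPM in induced against 69.9 CPM in control cells, and the 12 H3 genes, at 20.6 CPM in induced against 27.2 CPM in control cells, were lower. By location, the 52 HIST1 genes on chromosome 6 had a ratio of 0.502 and the 12 HIST2 genes one of 0.772. HIST1H4C supplied 586 of the 872 CPM of the HIST1 genes in the induced library, against 1394 of 1736 CPM in control. The HIST1 ratio is thus largely that of HIST1H4C. No HIST1 ratio without this gene was computed, so these ratios do not rank the locations. The 3 HIST3 genes had a ratio of 1.15, and HIST4H4 one of 0.755. The signs of all 5 classes were the same under TMM and DESeq2 scaling.

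Of the 68 members, 11 reached 10 CPM in either library, called measured here; 44 reached 1 CPM, 23 more had counts below that, and HIST1H3C had none in either library. Among the 11 measured members, 5 were at least 1.5-fold lower and 3 at least 1.5-fold higher in the induced library, on the scale of log2(CPM + 1). Of all 9017 measured genes, 7.73% were that much lower and 10.3% that much higher, with a median log2 ratio of -0.04, against -0.39 over the 11 members. At 1 CPM, 16 of 44 members were 1.5-fold lower and 5 higher, where 6.47% and 9.3% of all 17364 genes at that level were. TMM scaling moved the median of all measured genes by 0.12 and DESeq2 size factors by 0.17 (log2), and under both the same 5 members were lower and the same 3 higher. Of all measured genes, 5.04% were then lower and 14.3% higher with TMM, and 4.12% were lower and 16.3% higher with DESeq2 size factors. Totals without ribosomal protein and mitochondrial genes moved the median by -0.10 and gave 7 members lower and 2 higher of the 15 that then reached 10 CPM, where 12.3% of all measured genes were lower and 8.36% higher.

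**Figure D1:**
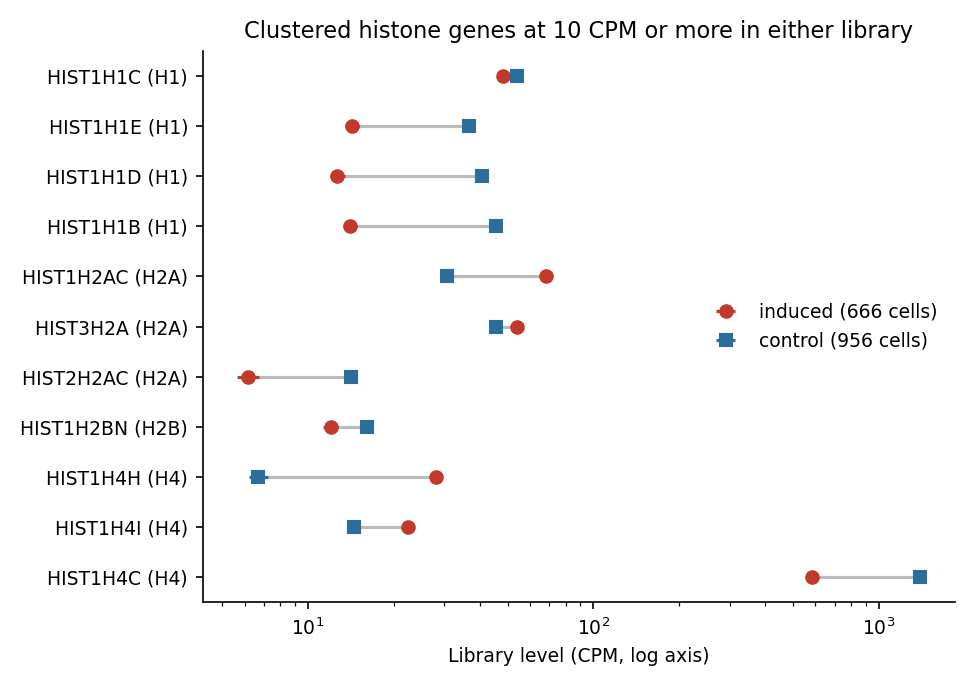
Library level in CPM (log axis) of the 11 clustered histone genes that reached 10 CPM in 1 library or both, with the class in brackets; red circles are the induced and blue squares the control library, and bars are 95% exact Poisson intervals for counting error only. HIST1H4C and the H1 genes HIST1H1B, HIST1H1D and HIST1H1E lie lower in the induced library, and HIST1H2AC, HIST1H4H and HIST1H4I lie higher.

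Among the H4 genes, which encode core histone H4, HIST1H4C (ENSG00000197061.4) stood at 586 CPM in the induced library, against 1394 CPM in control, from 47059 and 132896 counts. Its log2 ratio was -1.25, and -0.95 with the quality limits. HIST1H4H (ENSG00000158406.4), by contrast, was higher, at 28.0 CPM in the induced library, against 6.70 CPM in control, a log2 ratio of 1.91, the highest of the 11. A single induced cell held 9.14% of the HIST1H4H counts of its library; without that cell the log2 ratio was 1.78, and with the quality limits it was 1.37. HIST1H4I (ENSG00000276180.1) stood at 22.4 CPM in induced against 14.4 CPM in control cells, a log2 ratio of 0.60 that lies just past the 1.5-fold limit and that was 0.58 without the same cell and 0.27 with the quality limits, both short of it. Of the H4 genes below 10 CPM, HIST1H4J had 3.89 CPM in the induced library, against 6.74 CPM in control, HIST4H4 had 2.03 CPM in induced against 2.68 CPM in control cells, and HIST1H4E had 1.70 CPM in induced against 2.22 CPM in control cells. Only 17.8% of the 31-base words of HIST1H4J are its own among annotated transcripts, so its level is uncertain; for HIST1H4C the share is 100%.

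The H1 genes encode linker histones, and the S phase linker histones HIST1H1B, HIST1H1D and HIST1H1E were lower together. HIST1H1B (ENSG00000184357.4) had 14.0 CPM in the induced library, against 45.5 CPM in control, a log2 ratio of -1.63. HIST1H1D (ENSG00000124575.6) had 12.7 CPM in induced against 40.8 CPM in control cells (log2 ratio -1.61), and HIST1H1E (ENSG00000168298.6) had 14.2 CPM in induced against 36.7 CPM in control cells (log2 ratio -1.31). Their sum had a ratio of 0.333 (0.320 to 0.346). HIST1H1C (ENSG00000187837.3), a linker histone gene that can also yield polyadenylated mRNA, stood apart from them at 48.4 CPM in the induced library, against 54.0 CPM in control. Its log2 ratio of -0.16 was 0.00 with DESeq2 size factors and -0.43 with the quality limits. The only other H1 row, HIST1H1PS1, a pseudogene, had 0 counts in the induced library, against 4 in control. Promoters of the linker histone genes are shown because HIST1H1B, HIST1H1D and HIST1H1E were lower together and share an element, AAACACA, known as the H1 box, here in capitals with CCAAT and TATAAA on either strand. The windows run 5′ to 3′ on the gene's strand from 250 bases before to 50 after the start annotated by RefSeq (GRCh38.p14), for HIST1H1B at chr6:27867539-27867838, minus strand, and for HIST1H1E at chr6:26156079-26156378, plus strand.
HIST1H1B: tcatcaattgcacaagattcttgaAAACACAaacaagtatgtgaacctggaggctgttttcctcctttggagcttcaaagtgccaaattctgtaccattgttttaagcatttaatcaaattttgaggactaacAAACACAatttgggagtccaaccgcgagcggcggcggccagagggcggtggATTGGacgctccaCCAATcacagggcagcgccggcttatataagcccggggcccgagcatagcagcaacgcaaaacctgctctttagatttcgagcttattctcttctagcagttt
HIST1H1E: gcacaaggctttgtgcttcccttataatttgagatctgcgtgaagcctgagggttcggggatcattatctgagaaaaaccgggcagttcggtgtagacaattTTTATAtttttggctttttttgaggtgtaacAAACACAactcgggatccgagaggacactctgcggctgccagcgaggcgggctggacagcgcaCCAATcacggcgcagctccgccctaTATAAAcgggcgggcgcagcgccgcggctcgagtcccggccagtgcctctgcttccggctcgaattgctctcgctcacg
AAACACA lay in 4 of the 4 H1 promoters, HIST1H1C among them, in 9.80% of the 51 member promoters found and in 5.76% of all 27305 RefSeq promoters of the same length. The element is thus in the promoter of HIST1H1C as well as in those of the 3 genes that were lower.

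Among the H2A genes, HIST1H2AC (ENSG00000180573.9) stood at 68.3 CPM in the induced library, against 30.6 CPM in control, a log2 ratio of 1.13 that ranged from 1.00 to 1.29 over 10 alternatives. HIST3H2A (ENSG00000181218.5), on chromosome 1, had 53.9 CPM in induced against 45.4 CPM in control cells, a log2 ratio of 0.24, which was 0.01 with the quality limits. HIST2H2AC (ENSG00000184260.5) had 6.16 CPM in the induced library, against 14.1 CPM in control, a log2 ratio of -1.08; only 49.4% of its 31-base words are its own, so its level is uncertain. Below 10 CPM, HIST1H2AG had 3.42 CPM in induced against 7.33 CPM in control cells, HIST1H2AM had 2.26 CPM in induced against 5.14 CPM in control cells, and HIST1H2AE had 3.66 CPM in induced against 2.41 CPM in control cells. Only 12.9% of the 31-base words of HIST1H2AM are its own, so its level is uncertain. All these genes encode core histone H2A of the replication-dependent kind, and they lie on both sides of no difference.

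The only measured H2B gene, HIST1H2BN (ENSG00000233822.4), had 12.0 CPM in the induced library, against 16.1 CPM in control, a log2 ratio of -0.39. As annotated it overlaps HIST1H2AL on the same strand, so its counts may include those of HIST1H2AL. The member HIST1H2BPS2 overlaps it on the other strand. HIST1H2BD had 9.16 CPM in induced against 6.10 CPM in control cells, HIST1H2BG 5.81 CPM in induced against 7.86 CPM in control cells and HIST1H2BJ 6.58 CPM in induced against 5.47 CPM in control cells, each less than 1.5-fold apart on the scale used. No H3 gene reached 10 CPM. HIST1H3B, an H3 gene, had 3.15 CPM in the induced library, against 8.17 CPM in control, a log2 ratio of -1.14. HIST1H3H was level, at 4.84 CPM in induced against 4.89 CPM in control cells, and HIST2H3PS2, whose symbol marks it as a pseudogene, had 4.88 CPM in induced against 3.99 CPM in control cells. HIST1H3E, named after its values were seen, had 4.74 CPM in induced against 2.52 CPM in control cells, a log2 ratio of 0.71 that ranged from 0.68 to 0.83 over 10 alternatives.

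Per cell, fewer induced cells carried many HIST1H4C counts. With every cell thinned to 53000 counts, 562 induced and 766 control cells remained, and the shallower 104 induced and 190 control cells were left out. The median cell had 11 HIST1H4C counts in the induced library, against 39.5 in control, while the 95th percentile was 145 in induced and 203 in control cells. The highest cell had 403 counts in the induced library and 441 in control. Only 19.9% of induced cells (Clopper-Pearson interval 16.7 to 23.5) lay above the control median. The 10% of cells with the most HIST1H4C held 52.3% of its counts in the induced library, against 30.9% in control. The 66 other members together differed less, with a median of 16 counts in induced and 19 in control cells and a 95th percentile of 41 counts in induced and 54 in control cells. The median for HIST1H1B was 0 counts in induced and 1 in control cells, and the median for HIST1H2AC was 3 counts in induced and 1 in control cells.

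**Figure D2:**
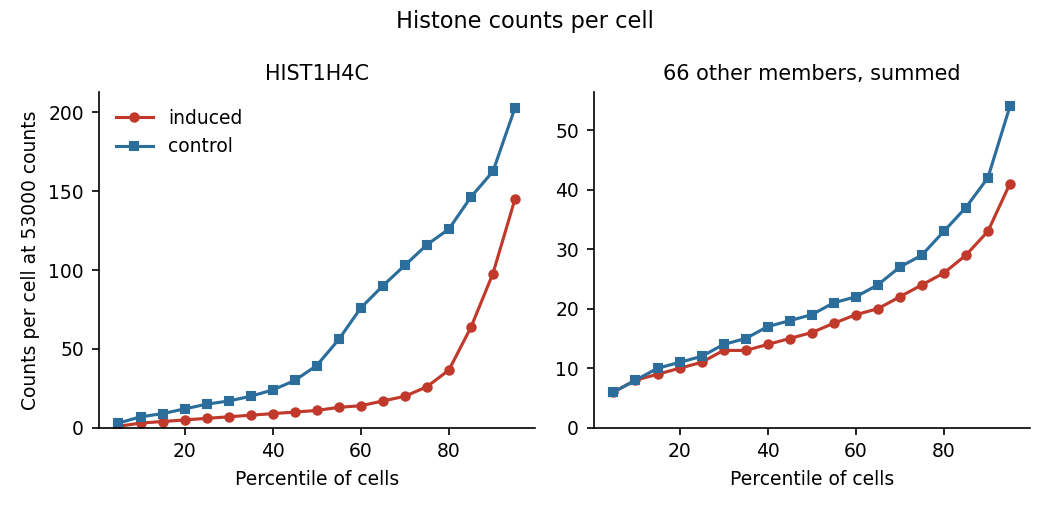
Counts per cell, after thinning each cell to 53000 counts, from the 5th to the 95th percentile of 562 induced (red circles) and 766 control cells (blue squares), for HIST1H4C and for the sum of the 66 other members. At the 50th percentile HIST1H4C stood at 11 counts in induced and 39.5 in control cells, and at the 95th at 145 in induced and 203 in control cells; the curves of the other members lie closer together.

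The relation to S phase was described with 43 S phase genes, none of them a clustered histone gene. PCNA, the sliding clamp of DNA replication and one of the 43, stood at 74.1 CPM in the induced library, against 132 CPM in control. Of the 39 measured genes of that list, 32 were 1.5-fold lower and 0 higher, with a median log2 ratio of -0.86; HELLS, a chromatin remodeller (-1.33), and ATAD2 (-1.29) were lowest and UBR7 (-0.38) and RPA2 (-0.36) highest. Cells of both libraries were put into 4 bins by their summed S phase counts, from low (bin 1) to high (bin 4), with limits at the quartiles of the control cells. Bin 1 took 70.1% of induced and 25.1% of control cells, and bin 4 took 8.90% of induced and 24.8% of control cells. Within 5% of the 3 limits lay 19, 12 and 11 induced and 32, 69 and 40 control cells. Across thinned cells of 1 library, HIST1H4C counts followed the S phase sum with a Spearman correlation of 0.56 over 562 induced and 0.52 over 766 control cells; these cells share a library, so this is a description. For the other members summed, the correlation was -0.01 in induced and 0.38 in control cells.

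At matched S phase level HIST1H4C differed more between the libraries in the lower than in the higher bins. In bin 1, HIST1H4C made up 2.47 of every 10000 counts in induced and 5.33 in control cells, a ratio of 0.463 (0.446 to 0.481). In bin 2 the values were 5.94 in induced and 11.1 in control cells, a ratio of 0.534. In bin 3 they were 14.6 in induced and 15.7 in control cells, a ratio of 0.934. In the top bin they were 24.3 in induced and 21.2 in control cells, a ratio of 1.15 (1.12 to 1.18). For all members together the ratios were 0.709, 0.580, 0.923 and 1.09 from bin 1 to bin 4, and the mean of the 4 log2 ratios was -0.32, against -0.85 over all thinned cells. Matching was incomplete in the bottom bin, where the mean S phase sum was 37.9 counts in induced and 54.2 in control cells; in the top bin it was 253 in induced and 247 in control cells. With bins of PCNA alone the mean was -0.43, and with the quality limits it was -0.27, with the top bin 0.13 higher on the log2 scale.

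**Figure D3:**
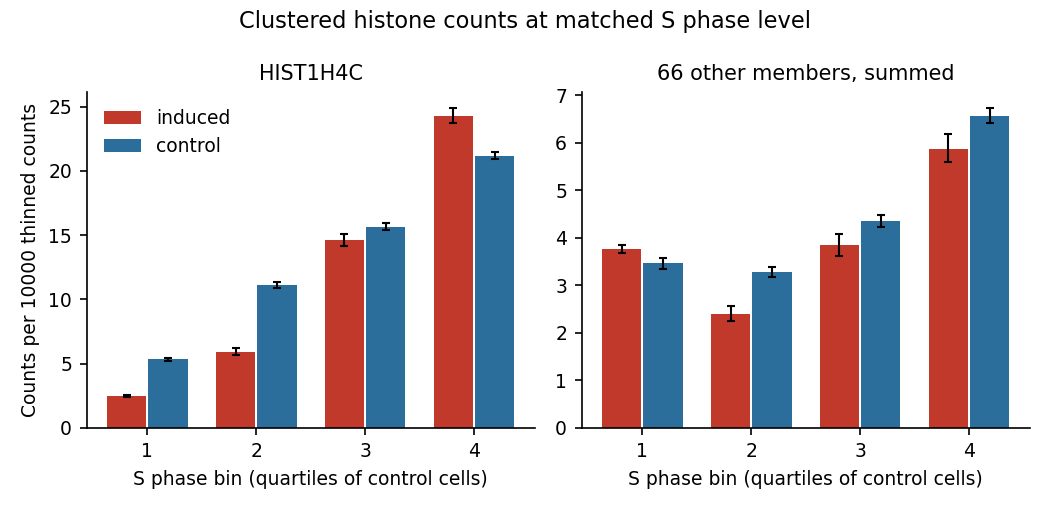
Counts per 10000 thinned counts of HIST1H4C (left) and of the 66 other members (right) in bins of cells by the summed S phase list, with limits at the quartiles of the control cells; red bars are induced and blue bars control cells, with 95% exact Poisson intervals for counting error only. HIST1H4C stood at 2.47 in induced and 5.33 in control cells of the bottom bin, and at 24.3 in induced and 21.2 in control cells of the top bin. The other members stood at 3.76 in induced and 3.46 in control cells of the bottom bin. In the top bin they stood at 5.87 in induced and 6.57 in control cells.

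Cells were also split at the control medians of the S phase sum and of the sum of 54 G2 and M phase genes. Of the 54, 44 were 1.5-fold lower in the induced library and 0 higher, with a median log2 ratio of -0.80; TOP2A (-1.29) and NCAPD2 (-1.20) were lowest and RANGAP1 (-0.07) and JPT1 (0.40) highest. Cells low in both sums made up 68.5% of induced and 30.3% of control cells. In them HIST1H4C stood at 283 CPM in induced and 662 CPM in control cells, whereas in cells high in both sums it stood at 2408 CPM in induced against 2232 CPM in control cells. In cells high in the G2 and M sum alone it stood at 358 CPM in induced against 1068 CPM in control cells, and HIST1H1B at 3.36 CPM in induced against 21.8 CPM in control cells. Matching on S phase level was incomplete here too. The mean S phase sum was 39.9 counts in induced and 69.0 in control cells low in both sums. In cells high in the G2 and M sum alone it was 90.2 in induced and 107 in control cells. In cells high in both sums it was 205 in induced and 205 in control cells. In both libraries HIST1H2AC and HIST1H4H had their highest levels in the cells low in both, where HIST1H2AC had 89.4 CPM in induced and 51.4 CPM in control cells and HIST1H4H had 37.2 CPM in induced against 9.92 CPM in control cells. In cells high in the G2 and M sum alone, HIST1H2AC had 44.2 CPM in induced against 23.7 CPM in control cells and HIST1H4H 9.30 CPM in induced against 5.05 CPM in control cells. In cells high in the S phase sum alone, HIST1H2AC was lower, at 18.9 CPM in induced against 29.3 CPM in control cells, a ratio of 0.644 (0.451 to 0.900), and HIST1H4H had 8.74 CPM in induced against 4.47 CPM in control cells. In cells high in both, HIST1H2AC had 18.0 CPM in induced against 17.2 CPM in control cells and HIST1H4H 5.69 CPM in induced against 4.61 CPM in control cells, with intervals of the ratio from 0.770 to 1.40 and from 0.691 to 2.11.

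Some members were higher and some lower with rising S phase level, in each library by itself. In control cells, the top S phase bin had more HIST1H1B than the bottom bin by 3.82 on the log2 scale, more HIST1H1D by 2.89, more HIST1H1E by 2.46, more HIST2H2AC by 2.36, more HIST1H4C by 1.99 and more HIST1H1C by 1.53. It had less HIST1H2AC (-1.49), HIST3H2A (-1.08) and HIST1H4H (-0.86), while HIST1H2BN (0.35) and HIST1H4I (-0.12) were within 1.5-fold. So 6 of 11 measured members were 1.5-fold higher and 3 lower in the top bin, where 11.3% and 5.46% of all measured genes were. At 1 CPM, 25 of 44 members were higher and 6 lower, against 10.5% and 6.49% of all genes. In induced cells the same comparison gave 6 higher and 4 lower of 11 (18.7% and 15.4% of all measured genes), and 26 higher and 10 lower of 44 (22.2% and 16.5%). The values in induced cells were 4.95 for HIST1H1B and 3.29 for HIST1H4C at the high end, and -2.61 for HIST1H2AC and -2.37 for HIST1H4H at the low end. The top bin held 50 induced cells, so its low genes rest on few counts.

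Within matched bins, 1 of the 11 measured members was 1.5-fold higher in induced cells and 2 were lower, where 5.36% and 1.38% of all measured genes were. The higher one was HIST1H4H, with a mean log2 ratio of 0.64, which was 0.60 without the single cell named above and 0.40 with the quality limits, short of 1.5-fold. In the bottom bin it stood at 37.3 CPM in induced and 9.63 CPM in control cells, and without that cell at 32.8 CPM in induced cells. The levels in bin 2 were 5.01 CPM in induced against 6.32 CPM in control cells, those in bin 3 were 7.34 CPM in induced against 4.24 CPM in control cells, and those in bin 4 were 6.42 CPM in induced against 4.87 CPM in control cells, so the difference was largest in the bottom bin. The lower ones were HIST1H1B (-0.64) and HIST1H1D (-0.63). With the quality limits HIST1H1B was at -0.55, short of 1.5-fold, and HIST1H1D at -0.59, just past it. HIST1H1D stood at 3.97 CPM in induced against 11.8 CPM in control cells in the bottom bin. In the top bin HIST1H1D stood at 83.4 CPM in induced against 94.1 CPM in control cells. HIST1H2AC had a mean of 0.12, with 90.2 CPM in induced against 55.4 CPM in control cells in the bottom and 14.0 CPM in induced against 19.1 CPM in control cells in the top bin. At 1 CPM, 1 of 44 members was higher and 6 were lower, against 4.52% and 2.41% of all genes at that level.

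**Figure D4:**
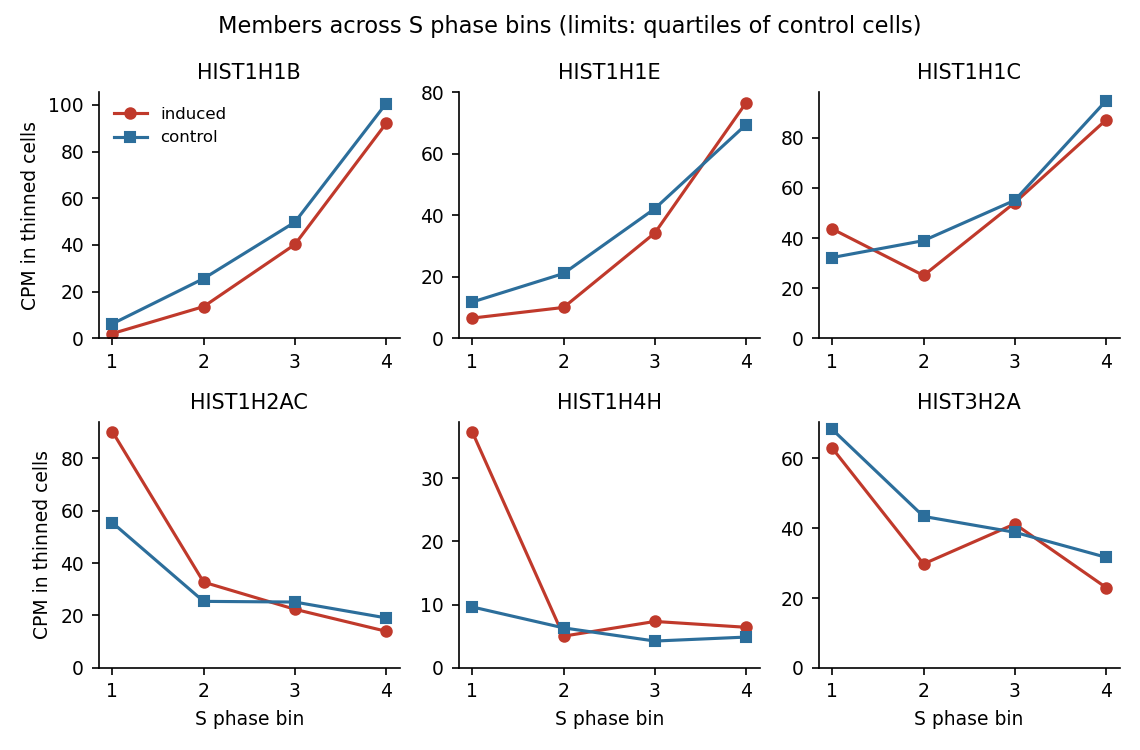
CPM in thinned cells of 6 members in bins of cells by the S phase list, from low (1) to high (4), for induced (red circles) and control cells (blue squares). HIST1H1B, HIST1H1E and HIST1H1C are highest in the top bin of both libraries; HIST1H2AC, HIST1H4H and HIST3H2A are highest in the bottom bin of both.

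The members high and low in S phase differed in how their transcripts are annotated. Genes were split by whether their longest transcript in GENCODE 29 has at least 800 bases, a limit set after their values were seen. The longest of the shorter models has 789 bases and the shortest of the longer ones 895. Of the 22 members at 1 CPM with shorter models, 13 were 1.5-fold lower in the induced library and 0 higher, where 6.47% and 9.3% of all genes at that level were. In the top S phase bin of control cells, 20 of these 22 were 1.5-fold higher, with a median of 1.46, and 1 was lower, where 10.5% and 6.49% of all genes were. The lower one was HIST1H2BD (-0.93), whose model of 789 bases is nearest the limit. Of the 22 with longer models, 3 were 1.5-fold lower and 5 higher in the induced library, and 5 were 1.5-fold higher and 5 lower in the top S phase bin, with a median of -0.04. Among measured members, HIST1H4C, HIST1H1B, HIST1H1C, HIST1H1D, HIST1H1E and HIST2H2AC have the shorter models, and all 6 were 1.5-fold higher in the top S phase bin. HIST1H2AC, HIST1H4H, HIST1H4I, HIST3H2A and HIST1H2BN have the longer ones, with 1668 bases for HIST1H2AC and 2163 for HIST1H4H, and none was 1.5-fold higher in that bin, where HIST1H2BN was at 0.35. No source used here names the annotation behind the counts, and its models may differ from those of GENCODE 29, so the split is one of annotation alone; whether the counted molecules were the long ones was not tested.

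Several of the longer models run past the histone stem-loop. It is shown here for members higher in the induced library other than HIST2H4A. It is also shown for HIST3H2A and HIST1H2BN, which were less than 1.5-fold apart. HIST2H4A had 2.26 CPM in induced against 1.04 CPM in control cells, a log2 ratio of 0.68, and its transcript runs 1167 bases past the stem-loop. Only 1.44% of its 31-base words are its own, so its level is uncertain. Capitals mark the paired bases of the stem, between which lies the loop, in the sequence of the transcript as annotated by GENCODE 29 (T for U).
HIST1H2AC: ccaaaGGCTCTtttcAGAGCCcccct
HIST1H4H: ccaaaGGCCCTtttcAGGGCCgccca
HIST1H4I: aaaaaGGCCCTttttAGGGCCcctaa
HIST1H3E: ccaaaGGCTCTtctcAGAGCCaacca
HIST3H2A: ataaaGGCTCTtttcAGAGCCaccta
HIST1H2BN: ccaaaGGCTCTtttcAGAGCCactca
After the stem-loop the annotated transcript goes on for 1128 bases in HIST1H2AC, 1655 in HIST1H4H and 1862 in HIST1H3E. It goes on for 212 in HIST1H4I, 390 in HIST3H2A and 377 in HIST1H2BN. Some members that were 1.5-fold lower in the induced library also have long models past the stem-loop. These run 1761 bases in HIST1H2AG (log2 ratio -0.91), 1640 in HIST1H2BH (-0.70) and 1518 in HIST1H3G (-0.96). A stem-loop of this form was found in the annotated transcripts of 31 of 68 members; in the others the letters are not in the annotated transcript. The same stem and loop letters, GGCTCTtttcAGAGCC, occur in 15 members, HIST1H2AC and HIST3H2A among them. HIST1H2BG has them too, at 5.81 CPM in induced against 7.86 CPM in control cells.

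**Figure D5:**
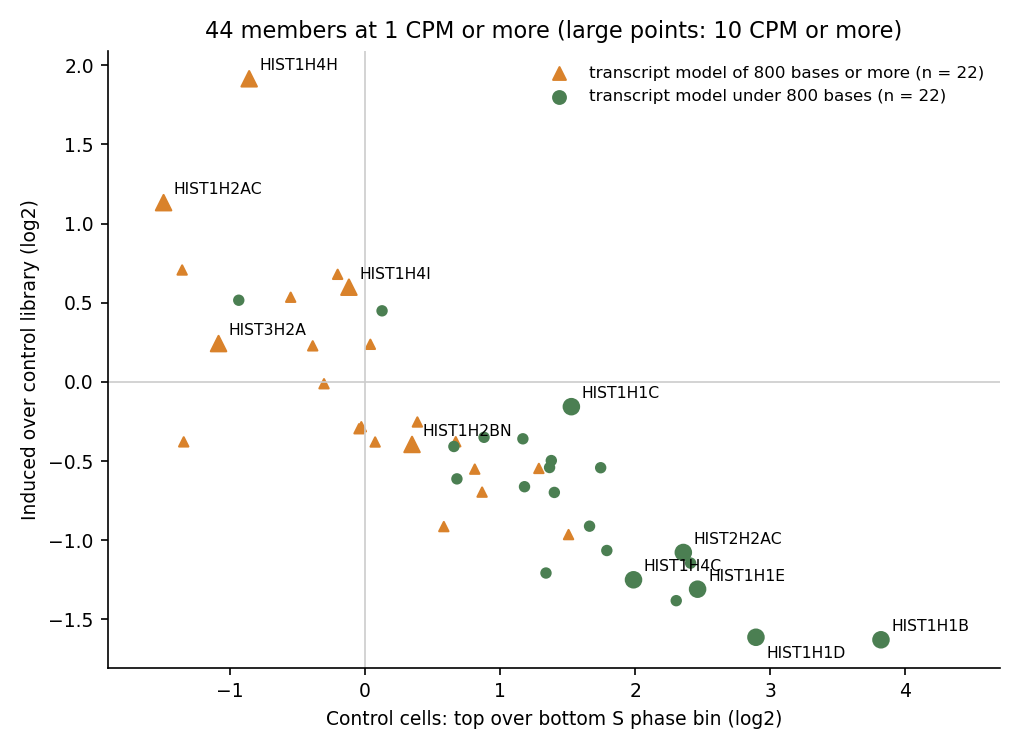
Log2 of the induced over the control library (vertical) against log2 of the top over the bottom S phase bin of control cells (horizontal) for the 44 members at 1 CPM or more; green circles have annotated transcripts under 800 bases and orange triangles longer ones, and large named points reach 10 CPM. HIST1H1B lies at 3.82 and -1.63, and HIST1H2AC at -1.49 and 1.13; the control cells enter both axes, so no correlation is given.

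Many H2A and H2B genes lie in head-to-head pairs that share the DNA between them. In GENCODE 29 there were 13 pairs of members on opposite strands with starts within 500 bases, at gaps of 123 to 356 bases, and in 7 of them both genes reached 1 CPM. In 5 of these 7 the log2 ratios had opposite signs, though some are near 0: over 10 alternatives HIST1H2BJ ranged from -0.19 to 0.37 and HIST3H2BB from -0.39 to 0.01. A single cell held 10.5% of the induced counts of HIST1H2AE, a partner in another of them. The share of opposite signs among unpaired members was not computed, so the count does not tell whether pairs differ from other members. HIST1H2BC had 3.72 CPM in the induced library, against 5.06 CPM in control, while its partner HIST1H2AC had 68.3 CPM in induced against 30.6 CPM in control cells. HIST2H2BE had 6.91 CPM in induced against 4.46 CPM in control cells, while its partner HIST2H2AC had 6.16 CPM in induced against 14.1 CPM in control cells. The partners differed in S phase too: in control cells the top over the bottom bin was 1.17 for HIST1H2BC and -1.49 for HIST1H2AC, and -0.55 for HIST2H2BE and 2.36 for HIST2H2AC. The pairs named were chosen after their values were seen.

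The promoter of HIST1H2AC, which overlaps that of HIST1H2BC on the other strand, is shown because partners with shared DNA differed, and that of HIST1H4H because this gene had the highest ratio. The windows are those of RefSeq as above, at chr6:26123922-26124221, plus strand, for HIST1H2AC and at chr6:26285485-26285784, minus strand, for HIST1H4H. Capitals mark CCAAT and TATAAA, the octamer ATTTGCAT and the H4 element GGTCCG on either strand.
HIST1H2AC: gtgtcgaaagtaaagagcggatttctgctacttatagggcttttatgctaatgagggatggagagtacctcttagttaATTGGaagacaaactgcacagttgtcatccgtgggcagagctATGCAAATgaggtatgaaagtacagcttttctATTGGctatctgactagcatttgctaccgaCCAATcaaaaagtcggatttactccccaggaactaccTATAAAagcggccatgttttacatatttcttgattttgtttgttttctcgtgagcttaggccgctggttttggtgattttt
HIST1H4H: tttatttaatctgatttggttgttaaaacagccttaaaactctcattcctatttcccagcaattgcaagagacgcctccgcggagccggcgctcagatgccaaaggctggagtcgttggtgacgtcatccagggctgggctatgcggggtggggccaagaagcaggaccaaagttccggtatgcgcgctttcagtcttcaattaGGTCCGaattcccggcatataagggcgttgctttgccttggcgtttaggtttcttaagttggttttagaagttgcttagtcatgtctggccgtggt
The HIST1H2AC window holds the octamer, CCAAT and also TATAAA. The overlapping window of HIST1H2BC holds these same bases read from the other strand. Its TATAAA match is thus the one of HIST1H2AC, on the strand opposite to HIST1H2BC. The octamer lay in 10 of 12 H2A and 12 of 16 H2B promoters, in 43.1% of the 51 member promoters found, and in 1.80% of all 27305 promoters. GGTCCG lay in 10 of 10 H4 promoters found, those of HIST1H4H and HIST1H4I among them, in 25.5% of member promoters and in 11.2% of all. CCAAT lay in 84.3% of member promoters and 35.7% of all, and TATAAA in 64.7% of member promoters and 12.0% of all. These matches are of letters only, on either strand, and a site in DNA shared by partners counts for both genes. CCAAT and TATAAA occur in all 5 classes, GGTCCG also in 1 H2A, 1 H2B and 1 H3 promoter, and AAACACA in 1 H2A promoter.

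Genes listed for the making, processing or carrying of histones were measured beside them. Of 23 measured genes of histone gene transcription and mRNA processing, 3 were 1.5-fold lower and 2 higher in the induced library, with a median of -0.39; the shares over all measured genes are 7.73% and 10.3%, so these counts lie near the background. CASP8AP2, which binds the complex that makes histone mRNA 3′ ends, was lowest at 21.1 CPM in the induced library, against 34.5 CPM in control, next to SNRPE, an Sm protein, at 411 CPM in induced against 650 CPM in control cells. MIF4GD, a partner of SLBP, was highest at 28.0 CPM in induced against 16.9 CPM in control cells. Next to it was TERF2IP at 219 CPM in induced against 143 CPM in control cells. TERF2IP was counted because the list holds it, and whether it acts on histone mRNA was not tested. SLBP itself had 85.3 CPM in induced against 113 CPM in control cells, and NPAT, an activator of histone gene transcription, had 12.8 CPM in induced against 18.6 CPM in control cells. Within S phase bins SLBP had a mean log2 ratio of 0.17. SLBP is itself on the S phase list whose sum set these bins, so the binning partly matched its own counts. That value therefore cannot tell whether SLBP differed at matched S phase level.

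Of 23 measured histone chaperone and nucleosome assembly genes, 8 were 1.5-fold lower and 0 higher, with a median of -0.54 (7.73% and 10.3% of all measured genes). NASP, which holds soluble histones, had 88.0 CPM in the induced library, against 181 CPM in control. ASF1B had 17.9 CPM in induced against 36.6 CPM in control cells, while its relative ASF1A had 56.7 CPM in induced against 39.0 CPM in control cells, and UBN1 was level at 79.7 CPM in induced against 81.7 CPM in control cells. Of 10 measured histone genes outside the clusters, most of which make polyadenylated mRNA, 3 were 1.5-fold lower and 0 higher, with a median of -0.18, beside the same shares over all measured genes. H2AFV (301 CPM in induced against 509 CPM in control cells) and CENPA (45.1 CPM in induced against 76.8 CPM in control cells), the histone of centromeres, were lowest. H1F0, a linker histone of resting and differentiating cells, had 53.7 CPM in induced against 47.8 CPM in control cells, and H2AFJ had 44.2 CPM in induced against 32.9 CPM in control cells. Of 8 clustered members listed as able to be polyadenylated, 3 were measured (HIST1H1C, HIST3H2A and HIST1H2AC), and the 8 summed to 193 CPM in the induced library, against 149 CPM in control, a ratio of 1.29 (1.26 to 1.32). HIST1H2AC makes up most of that difference: the 7 others summed to 125 CPM in induced against 119 CPM in control cells, a ratio of 1.05 (1.02 to 1.08). That list was put together with results of these data known, so its ratio is no independent evidence of its direction.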

How the data were processed

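Droplet libraries of the 3′ chemistry were made, 1 with and 1 without doxycycline, per the labels. Per the submitters' processing notes, kallisto and bustools were used; the sources used here name no version and no genome build. The deposited values are counts of molecules, whole numbers for each gene in each cell. The authors also deposited the mitochondrial percent of each cell. Cells were assigned to libraries by the deposited annotation. The annotation marks all cells as singlets, and no doublet caller was run here.

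Counts were summed over cells and scaled to CPM. Log2 ratios use a pseudocount of 1 CPM, which understates differences of low genes. Intervals are exact, at 95%, and cover counting error only. For 0 counts their upper limit is 0.0459 CPM (induced) and 0.0387 CPM (control). Thinned cells hold 53000 counts. Members were matched to GENCODE 29 by stable ID (66) or symbol (2), and to RefSeq promoters by ID or symbol (51 of 68); the promoter of HIST1H4C was not analysed. TMM used edgeR 4.0.16 and size factors DESeq2 1.42.0, with no test. Calculations were tested on simulated data. The text names every member at 10 CPM, the 3 with most counts below it in each class, PCNA, and the 2 highest and 2 lowest of each list; genes on more than 1 list count in every one. HIST1H2BC, HIST1H2BH, HIST1H3E, HIST1H3G, HIST2H2BE, HIST2H4A, SLBP and NPAT were named after their values were seen. The members and lists were chosen with earlier results of these data known.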

Additional observations from a re-analysis of the deposited data

How the results depend on the processing

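The direction of the summed level of clustered histone genes was the same under all 11 alternatives. Its log2 ratio of -0.93 was -0.81 with TMM, -0.77 with DESeq2 size factors, -1.02 with totals without ribosomal protein and mitochondrial genes, -0.82 as a mean of per-cell CPM, -0.85 without the 5% of cells with the most counts and in thinned cells, -0.96 without the 20% with the fewest, and -0.75 with the quality limits. Chosen after seeing the data, it was -0.95 without the induced cell with the highest histone share and -0.21 without HIST1H4C, which removes most of the counts.

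The count of 5 members lower and 3 higher became 17 and 5 with no filter beyond 1 count, 16 and 5 with a filter at 1 CPM, and 1 and 1 with a filter at 50 CPM, where 67, 44 and 4 members are counted. At 1 CPM, 6.47% of all genes were that much lower and 9.3% higher. The shares over all genes were not computed with no filter or at 50 CPM, so those counts cannot be set against a background. In 8 of 12 other settings HIST1H4I was under 1.5-fold, which left 2 higher.

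The mean at matched S phase level, -0.32, was -0.21 with TMM, -0.40 with totals without ribosomal protein and mitochondrial genes, -0.29 without the 5% of cells with the most counts, -0.27 with the quality limits, -0.35 thinned to 10000 counts, -0.26 thinned to 30000, -0.35 with 3 bins, -0.29 with 5 bins and -0.43 with bins of PCNA. Chosen after seeing the data, it was -0.39 with bins of the G2 and M list and -0.17 without HIST1H4C. No paired analysis was possible because each group has 1 library. Depth limits members under 1 CPM, whose ratios rest on few counts.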

Other observations

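A single induced cell stood apart in histone counts. Of its 121058 counts, 1310 came from clustered histone genes other than HIST1H4C, or 10821 CPM, where the next highest induced cell had 3208 CPM and the highest control cell 2633 CPM. It held 321 counts of HIST1H1C, 296 of HIST3H2A, 206 of HIST1H4H and 188 of HIST1H2AC, but 42 of HIST1H4C and 1 of HIST1H1B. Counts were found for 37 members. It held 4.34% of all induced counts of members other than HIST1H4C, 8.25% of those of HIST1H1C and 10.5% of those of HIST1H2AE. Its mitochondrial percent was 6.0 and its MALAT1 level 5146 CPM. After thinning, its S phase sum was 48 counts, which put it in the bottom S phase bin. The other members' level in that bin was 376 CPM in induced and 346 CPM in control cells with it, and without it 348 CPM in induced and 346 CPM in control cells.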
